A study of Mus musculus with 6 samples.

Results

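Mt1, Mt2 and Mt3 are the metallothionein genes described here, 3 of the 27514 genes that the count files of both preparations list. They were taken by gene symbol, without a threshold on any measured value, but earlier results of these data were known when they were chosen. The mitochondrially encoded genes, whose symbols start with mt-, are other genes. The data are single-cell RNA counts of female wild-type C57Bl/6J mice without treatment. The first preparation came from the cortices of 3 pooled mice aged 3 weeks and the second from the hippocampi of 3 pooled mice aged 5 weeks, each dissociated with enzymes, cleared of myelin and loaded without sorting. From each pooled suspension 3 droplet libraries (10x Genomics) were made as technical replicates, so that there are 6 libraries but 1 biological sample per preparation, and no test between preparations is possible. Region, age and preparation change together and cannot be told apart, and the spread over 3 libraries given below is technical, not a spread between animals.

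Metallothioneins are small, cysteine-rich proteins that bind zinc and copper ions and buffer them inside the cell. Mt1 and Mt2 are made in most tissues, and their transcription rises with zinc, other heavy metals, glucocorticoids and cytokines such as IL-6, in the case of metals through the factor MTF1, which binds metal response elements near the start of the genes. Mt3, also called growth inhibitory factor, is found mainly in the brain and is known from zinc handling in the nervous system. In the brain, astrocytes are known as a main site of Mt1 and Mt2.

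The 3 genes lie on the plus strand of mouse chromosome 8 in build GRCm38 (GENCODE M21), each with 3 exons. Mt3 (ENSMUSG00000031760) spans chr8:94152607-94154146, Mt2 (ENSMUSG00000031762) chr8:94172664-94173568 and Mt1 (ENSMUSG00000031765) chr8:94179082-94180327. Their neighbour Mt4 lies upstream at chr8:94137197-94139031. Metal response elements carry a core of 7 bases, which was searched here as TGCACNC and TGCGCNC on both strands, and no stretch can hold both forms on the same strand. The first 150 bases of the main annotated transcript held 4 such cores in Mt1, 3 in Mt2 and 3 in Mt3, and none in Mt4. Of 21227 transcripts searched in the same way, 16.5% held at least 1 core, 0.471% held at least 3 and 0.0518% held at least 4. These cores lie inside the annotated first exon, which in all 3 genes also holds the letters TATAAA downstream of them. They are shown because sites of this kind are the known route by which metals act on Mt1 and Mt2, and those of Mt3 are listed beside them. The 7 bases of the core are in capitals, 5′ to 3′ on the plus strand.
Mt1, chr8:94179091-94179097: agggagctcTGCACTCcgcccgaaaa
Mt1, chr8:94179109-94179115: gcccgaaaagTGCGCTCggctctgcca
Mt1, chr8:94179173-94179179: accgcctgctGGGTGCAaaccctttgc
Mt1, chr8:94179187-94179193: gcaaacccttTGCGCCCggactcgtcc
Mt2, chr8:94172676-94172682: gaaaaagggcGTGTGCAggcggcgggg
Mt2, chr8:94172695-94172701: cggcgggggcGCGTGCAtggtgccttc
Mt2, chr8:94172729-94172735: gcggagctttTGCGCTCgacccaatac
Mt3, chr8:94152634-94152640: gggacagcagTGCACACacacggagag
Mt3, chr8:94152661-94152667: caggcgctgtGCGTGCAtaggggcggg
Mt3, chr8:94152693-94152699: agtcgctgctTGCGCGCccccgcctgg
The last core listed for each gene, of the TGCGCNC form, began 23 bases before TATAAA in Mt1, 24 bases before it in Mt2 and 20 bases before it in Mt3. In the 250 bases before the RefSeq start of the gene, Mt2 held 3 cores, Mt1 and Mt4 held 1 each and Mt3 held 0, where 21.4% of 32851 such windows held at least 1 core. A match of letters is a description and does not show that a factor binds there.

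The transcripts of the 3 genes can be told apart by the counted reads to the extent that their sequences differ. The main transcripts are 549, 511 and 536 bases long for Mt1, Mt2 and Mt3, the longest run of bases shared by any 2 of them is 27 bases, between Mt1 and Mt3, and within the last 100 bases it is 10 bases. An antisense gene, Gm45774, overlaps Mt2 and is listed in the cortical files only, and how the counting used strand is not given in the sources used here.

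Libraries held between 39662203 and 50024850 unique molecular identifiers (UMIs, each standing for 1 captured RNA molecule). After filters on genes per cell and mitochondrial UMIs, 13320 cortical and 14210 hippocampal cells were kept. They were grouped into classes from marker genes of 16 cell types, without use of the 3 metallothioneins, and a class is written as, for example, astrocyte-like. Levels are given in CPM, the UMIs of a gene summed over the cells of a class, divided by the sum of every UMI in those cells and multiplied by 1000000. Between 257 and 304 barcodes were shared by each pair of hippocampal libraries, and between 11 and 22 by each pair of cortical ones. The shared hippocampal barcodes made up 67.6% of the epithelial-like, 40.4% of the monocyte-like and 21.3% of the ependymal-like cells, and levels without them are given beside those classes. Among the cortical libraries, replicate 1 held the highest level of all 3 genes in astrocyte-like, endothelial-like and microglia-like cells.

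Astrocyte-like cells carried most of the metallothionein RNA in both preparations. In the cortex, 2703 astrocyte-like cells made up 20.3% of the kept cells and 18.7% of their UMIs but held 85.9% of the Mt1, 89.3% of the Mt2 and 92.6% of the Mt3 UMIs. In the hippocampus, 1970 such cells made up 13.9% of the cells and 11.6% of the UMIs and held 67.6%, 77.0% and 72.4%. All 12 astrocyte markers were detected in these cells in both preparations. The 3 genes together supplied 2.08% of all UMIs of cortical and 1.60% of all UMIs of hippocampal astrocyte-like cells, with a median of 116 and 78 UMIs per cell.

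The Mt1 level in cortical astrocyte-like cells was 14804 CPM in replicate 1, 12749 CPM in replicate 2 and 11851 CPM in replicate 3, or 13169.9 CPM over all cells (SD 1514, n = 3 technical replicates). In hippocampal astrocyte-like cells it was 8368, 8982 and 8806 CPM, or 8718 CPM over all cells (SD 316, n = 3). All cortical libraries lay above all hippocampal ones. Ordered by UMIs, a count of molecules that is not divided by length, Mt1 stood in place 4 among the nuclear genes of astrocyte-like cells in both preparations. Mt2, the close relative of Mt1, stood at 3042, 2451 and 2292 CPM in the cortical libraries (2603 CPM over all cells, SD 395) and at 1786, 1865 and 1946 CPM in the hippocampal ones (1865 CPM, SD 80.3). Mt3 stood at 6115, 4946 and 3862 CPM in the cortex (5005 CPM, SD 1127), a spread wide enough to enclose the hippocampal values of 5345, 5466 and 5455 CPM (5422 CPM, SD 66.9). Per kilobase of main transcript, the cortical level of Mt1 was 23989 CPM against 9337 CPM for Mt3 and 5094 CPM for Mt2. In the hippocampus the same order held, with 15879.9 CPM per kilobase for Mt1, 10115 for Mt3 and 3651 for Mt2, so that Mt1 and Mt3 lay closer together there.

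**Figure D1:**
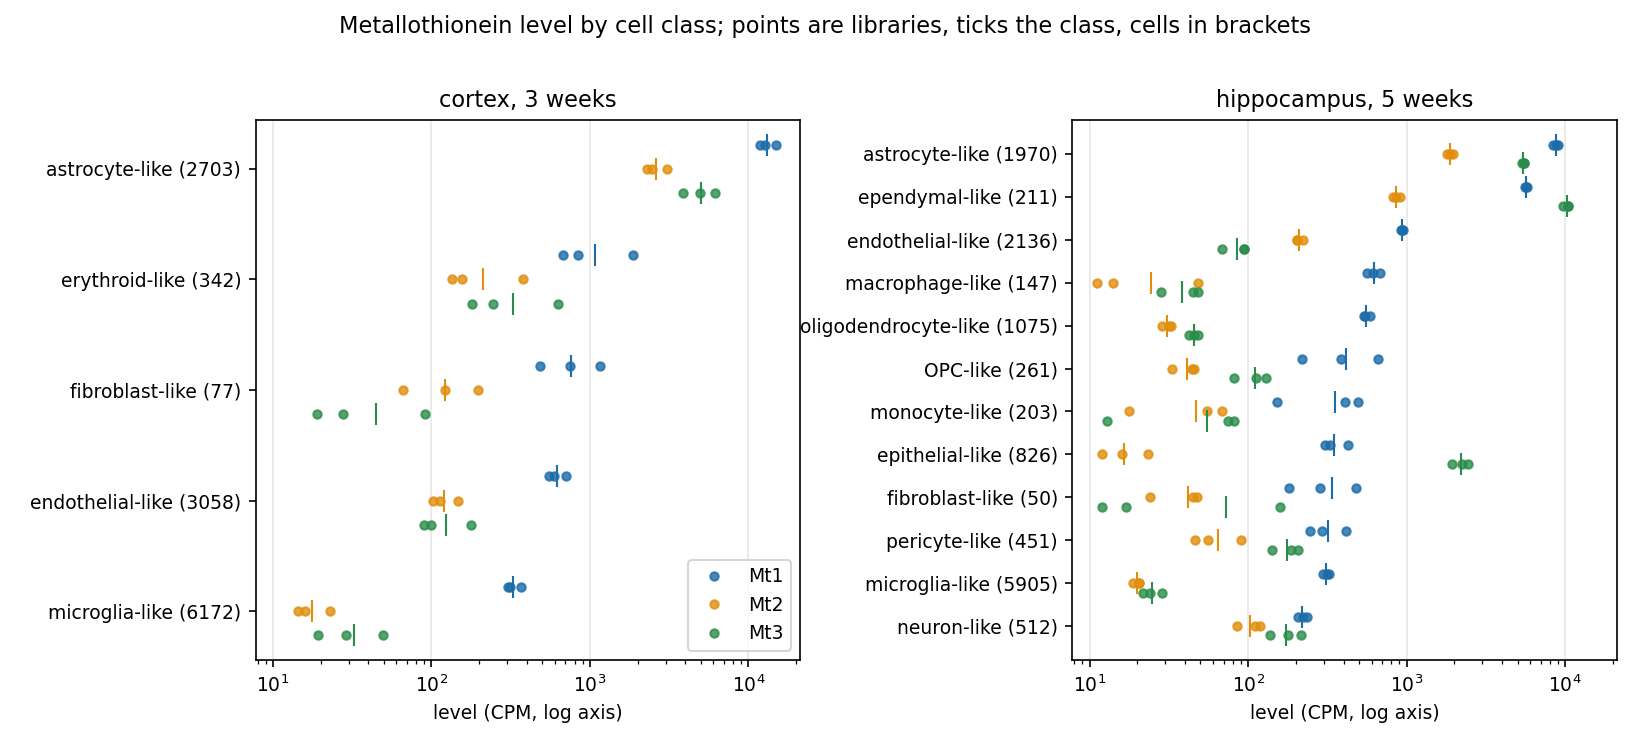
Level of Mt1, Mt2 and Mt3 (CPM, log axis) in each class of at least 50 cells, with the number of cells in brackets. Points are the 3 libraries of a preparation and ticks the value over all cells of the class. Astrocyte-like cells hold the highest levels in the cortex, and in the hippocampus the ependymal-like cells lie above them for Mt3 and next to them for Mt1 and Mt2.

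Most astrocyte-like cells held the genes, Mt2 less often than Mt1 and Mt3. To compare shares of cells, each cell was reduced at random to 1000 UMIs, which drops 157 astrocyte-like cells below that depth in the cortex and 129 in the hippocampus. Of 2546 cortical astrocyte-like cells, 99.3% held a Mt1, 87.1% a Mt2 and 97.2% a Mt3 UMI. Of 1841 hippocampal ones, 95.7%, 77.0% and 93.9% did. In microglia-like cells thinned in the same way, 22.2% of cortical and 23.4% of hippocampal cells held a Mt1 UMI, but only 1.43% and 2.01% a Mt2 and 2.13% and 2.41% a Mt3 UMI. Before thinning, the median depth was 6456 UMIs for astrocyte-like and 5471.5 for microglia-like cells in the cortex, and 6697 and 6645 in the hippocampus, and the unthinned shares of microglia-like cells with a Mt1 UMI were 60.5% and 69.6%. How much of these shares is free RNA in the droplets was not tested.

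Ependymal-like cells, the ciliated cells that line the ventricles, were named in the hippocampus only and held the highest Mt3 level of any class. Mt3 reached 10454, 9743 and 10439.9 CPM (10223 CPM over 211 cells, SD 407), 1.89 times the level of hippocampal astrocyte-like cells, and every ependymal-like library lay above every astrocyte-like one. Mt1 stood at 5751, 5676 and 5605 CPM (5684 CPM, SD 73.0) and Mt2 at 823, 850.3 and 913 CPM (858 CPM, SD 46.1), both below the astrocyte-like libraries. Mt3 thus exceeded Mt1 in these cells, with 19073 against 10353 CPM per kilobase, the reverse of the order in astrocyte-like cells. All 132 cells of at least 1000 UMIs still held a Mt3 UMI after thinning. The class was made of a shallow cluster of 116 cells, in which 38.8% of barcodes were shared between libraries, and a deep cluster of 95 cells with 0% shared, and their Mt3 levels were 10157 and 10233 CPM. Without shared barcodes the level was 10297 CPM. In ependymal-like cells the 12 astrocyte markers stood at a median of 7.45% and at most at 63.9% of their astrocyte-like levels. The astrocyte-like level was 1.53 times the ependymal-like one for Mt1 and 2.17 times for Mt2, so that Mt2 lay within the range of the markers.

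Epithelial-like cells, with markers of the choroid plexus such as Folr1, Kcnj13 and Kl, held Mt3 without a like level of the other 2 genes. Their Mt3 level was 2218, 2450.2 and 1929 CPM in the 3 hippocampal libraries (2189 CPM over 826 cells, SD 261), 40.4% of the astrocyte-like level. Mt1 stood at 347 CPM (SD 63.5), 3.98% of the astrocyte-like level, and Mt2 at 16.4 CPM, 0.879% of its own. That Mt2 level was the lowest of the hippocampal classes named at the resolution of 0.5, with libraries that overlapped the microglia-like ones. The 12 astrocyte markers, measured in the same cells as a guide to RNA of astrocytes, stood at a median of 0.373% of their astrocyte-like levels and at most at 1.13%. Mt3 lay above this range by a wide margin. Since 67.6% of these barcodes were shared between libraries, the level was computed again without them and was then 2434 CPM, with libraries of 2481, 2763 and 2106 CPM. The shallow cluster of the class (623 cells, median of 765 UMIs) held 932 CPM and the deep cluster (203 cells, median of 7004 UMIs) 2466 CPM.

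In the other classes named at the resolution of 0.5 the genes were at most at 11.2% of their astrocyte-like levels. The 12 astrocyte markers, measured in the same cells, are given beside most of them. At the resolution of 1.0, 111 cortical cells were named macrophage-like and held 941, 2285 and 1688 CPM of Mt1 (1759 CPM over all), a higher level than in any of those classes. In cortical endothelial-like cells, the vessel lining, Mt1 stood at 705, 555 and 589 CPM (617 CPM over 3058 cells, SD 78.7), 4.69% of the astrocyte-like level. Mt2 stood at 4.64% and Mt3 at 2.46% of theirs, where the markers had a median of 1.22% and a highest value of 4.43%. In hippocampal endothelial-like cells, Mt1 was 941, 928 and 923 CPM (931 CPM over 2136 cells, SD 9.36), 10.7% of the astrocyte-like level, and Mt2 was 11.2% of its own, both above the highest marker at 3.35%. Mt3 was 1.58% of its astrocyte-like level, within the range of the markers. In the hippocampus, then, Mt1 and Mt2 in endothelial-like cells went beyond what any of the 12 markers showed, whereas Mt3 did not.

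The same reading was made in endothelial-like cells that held no UMI of any astrocyte marker. In 931 such hippocampal cells, Mt1 stood at 914 CPM and Mt2 at 210.0 CPM, close to the values of 931 and 209 CPM over all endothelial-like cells, whereas Mt3 dropped to 20.7 CPM from 85.6 CPM. In 1120 such cortical cells, Mt1 was 415 CPM against 617 CPM over all, Mt2 86.7 against 121 CPM, and Mt3 49.4 against 123 CPM. That Mt3 level came from 107 CPM in replicate 1, 32.9 CPM in replicate 2 and 6.57 CPM in replicate 3, on both sides of the 20.0, 22.4 and 19.7 CPM of the hippocampal libraries. The cells without markers were shallower, with a median of 5744 UMIs in the hippocampus and 5145.5 in the cortex against 7363 and 7769.5 for the rest. Mt3 in endothelial-like cells also moved with the cells admitted: without called doublets the hippocampal level was 47.6 CPM, and with a mitochondrial limit of 10% the cortical level was 80.7 CPM.

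Among clusters of endothelial-like cells in the cortex, a cluster of 246 cells led by Igfbp3, Gkn3 and Sema3g, genes of arterial endothelium, held 1101 CPM of Mt1 (1165, 927 and 1206 CPM by library) and 418 CPM of Mt3. The summed level of the astrocyte markers was also highest there, at 2025 CPM against 439 CPM in the main cluster of 2318 cells, in which Mt1 stood at 592 and Mt3 at 64.5 CPM. This sum is not split by marker here, and the markers were uneven over all cortical endothelial-like cells, from 0.623% (Gjb6) to 4.43% (Gja1) of their astrocyte-like levels. The part of astrocyte RNA in the difference was not tested. A cluster of 130 cells led by Adm, Cd93 and Vwf held the lowest level of Mt1 in the class, 148 CPM, with 181, 135 and 122 CPM by library.

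Microglia-like cells, the resident macrophages of the brain, held Mt1 at a low level and hardly any Mt2 or Mt3. Mt1 stood at 365, 315 and 303 CPM in the cortex (327 CPM over 6172 cells, SD 32.9) and at 313, 322 and 296 CPM in the hippocampus (311 CPM over 5905 cells, SD 12.8). These are 2.49% and 3.56% of the astrocyte-like levels, where the markers had medians of 0.638% and 0.297%. A single marker lay higher, the glutamate transporter Slc1a3 at 5.22% and 4.65%, and the other 11 were at most 0.879% in the cortex. Mt3 was at 0.650% and 0.458% of its astrocyte-like level, among the markers. Mt2, at 17.7 CPM in the cortex (0.679%) and 19.9 CPM in the hippocampus (1.07%), lay among the markers in the cortex and above 11 of them in the hippocampus. In microglia-like cells without any astrocyte marker UMI, Mt1 was still 263 CPM in 1925 cortical and 299 CPM in 1624 hippocampal cells.

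Among the clusters of microglia-like cells, Mt1 was highest in the cluster led by the chemokine genes Ccl4 and Ccl3, in both preparations. In the cortex this cluster of 690 cells, in which the immediate early genes Egr1 and Fos also led, held 621, 590 and 551 CPM by library (587 CPM), above the 247 to 360 CPM of the 3 other large clusters. In the hippocampus the cluster of 881 cells led by these chemokine genes held 459, 494 and 435 CPM (464 CPM), above the 264 and 293 CPM of the other 2 large clusters. No library of these 2 clusters overlapped a library of the other large ones of its preparation, and the share of all genes without such overlap was not counted. Both were deeper than the other large clusters, with a median of 6634 UMIs against 5014.5 to 5528.5 in the cortex. In the hippocampus it was 7801 against 6374 and 6600. Over all microglia-like cells, Mt1 was 304 CPM in the cortex and 287 CPM in the hippocampus from 4000 to under 8000 UMIs. From 8000 to under 16000 UMIs it was 464 and 359 CPM. The part of depth was not tested. The clusters led by Ccl12 and Fcgr1 held 185 CPM in 100 cortical and 240 CPM in 152 hippocampal cells. The summed level of the astrocyte markers in the chemokine cluster, 341 CPM in the cortex, lay between the 289 and 457 CPM of the other clusters, and at 248 CPM in the hippocampus it lay below the 254 to 270.0 CPM of the others. These clusters were picked after their levels were seen.

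**Figure D2:**
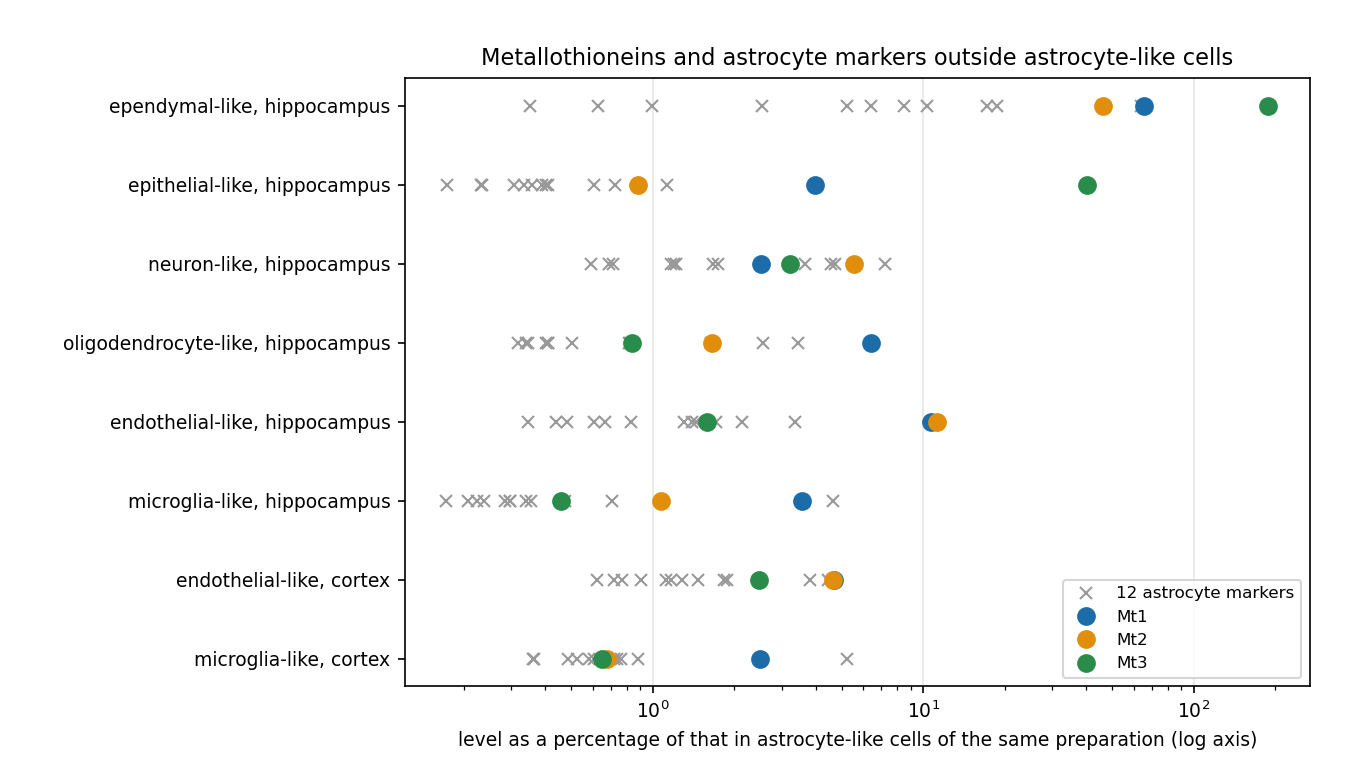
Level of Mt1, Mt2 and Mt3 in other classes as a percentage of their level in astrocyte-like cells of the same preparation (log axis), with the 12 astrocyte markers as crosses. Mt3 in ependymal-like cells lies at 189% and in epithelial-like cells at 40.4%, and in microglia-like cells Mt3 lies among the markers at 0.650% and 0.458%.

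Further classes were named in the hippocampus. Oligodendrocyte-like cells, which form myelin, held Mt1 at 548, 589 and 535 CPM (557 CPM over 1075 cells, SD 28.0), with 30.9 CPM of Mt2 and 45.3 CPM of Mt3. Macrophage-like cells held 624 CPM of Mt1 (SD 60.0), above all microglia-like libraries, with 24.3 CPM of Mt2 and 38.4 CPM of Mt3. The 203 monocyte-like cells held 354 CPM of Mt1, 47.0 CPM of Mt2 and 55.0 CPM of Mt3. Without shared barcodes, the 121 cells left held 353, 49.9 and 57.2 CPM. The 12 astrocyte markers reached from 0.317% to 3.45% of their astrocyte-like levels in oligodendrocyte-like and from 0.964% to 2.90% in monocyte-like cells. In macrophage-like cells they reached from 0% to 2.27%, where Mt1, Mt2 and Mt3 stood at 7.15%, 1.30% and 0.708%. Neuron-like cells held the lowest Mt1 level of the hippocampal classes named at the resolution of 0.5, 222, 207 and 233 CPM (219 CPM over 512 cells, SD 13.2), together with 103 CPM of Mt2 and 174 CPM of Mt3, and the 12 astrocyte markers reached from 0.591% to 7.21% of their astrocyte-like levels in these cells. The 3 genes stood at 2.52%, 5.53% and 3.22%, within that range. With cells named by their own markers, 430 neuron-like cells held 146 CPM of Mt1, 61.7 CPM of Mt2 and 132 CPM of Mt3. At the resolution of 1.0, 89 cells with markers of vascular smooth muscle were named as well and held less Mt1, 73.4, 45.8 and 139 CPM by library. In the order of hippocampal levels of Mt1, the neighbours from macrophage-like down to microglia-like cells overlapped in their libraries, and the steps from astrocyte-like to ependymal-like, from there to endothelial-like, from there to macrophage-like and from microglia-like to neuron-like cells did not. For Mt3, the steps from ependymal-like to astrocyte-like, to epithelial-like and to pericyte-like cells did not overlap, whereas pericyte-like and neuron-like cells, at 177 and 174 CPM, did.

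In the cortex, 342 erythroid-like cells held 1862, 842 and 679.6 CPM of Mt1, highest in replicate 1, and the 3 genes stood at 8.14%, 8.15% and 6.56% of their astrocyte-like levels, where the markers had a median of 6.995%. At the finer clustering resolution of 1.0, 316 cells were named erythroid-like, with 485, 495 and 524 CPM of Mt1. Mt1 in 77 cortical fibroblast-like cells was 1151, 745 and 487 CPM, overlapping the endothelial-like libraries. The fourth gene of the family in this region, Mt4, which is known from stratified epithelia, had 0 UMIs in the kept cortical cells, which allows up to 0.0323 CPM, and 1 UMI in the kept hippocampal cells, in an ependymal-like cell. These limits cover counting error only.

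The balance of Mt1 and Mt2 differed between classes. Of the UMIs of both genes, 83.5% were Mt1 in cortical astrocyte-like cells (83.0%, 83.9% and 83.8% by library) and 82.4% in hippocampal ones (82.4%, 82.8% and 81.9%). Endothelial-like cells showed 83.6% and 81.7%, with libraries that overlapped the astrocyte-like ones of their preparation. In microglia-like cells the share of Mt1 was 94.9% in the cortex (exact 95% interval 94.5% to 95.3%) and 94.0% in the hippocampus (93.6% to 94.4%). It was 94.7% in oligodendrocyte-like, 95.5% in epithelial-like and 96.2% in macrophage-like cells, all of whose libraries lay above all astrocyte-like ones. The lowest share belonged to neuron-like cells, at 66.8%, 70.8% and 66.2% by library (68.0%). All neuron-like libraries lay below all astrocyte-like ones.

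**Figure D3:**
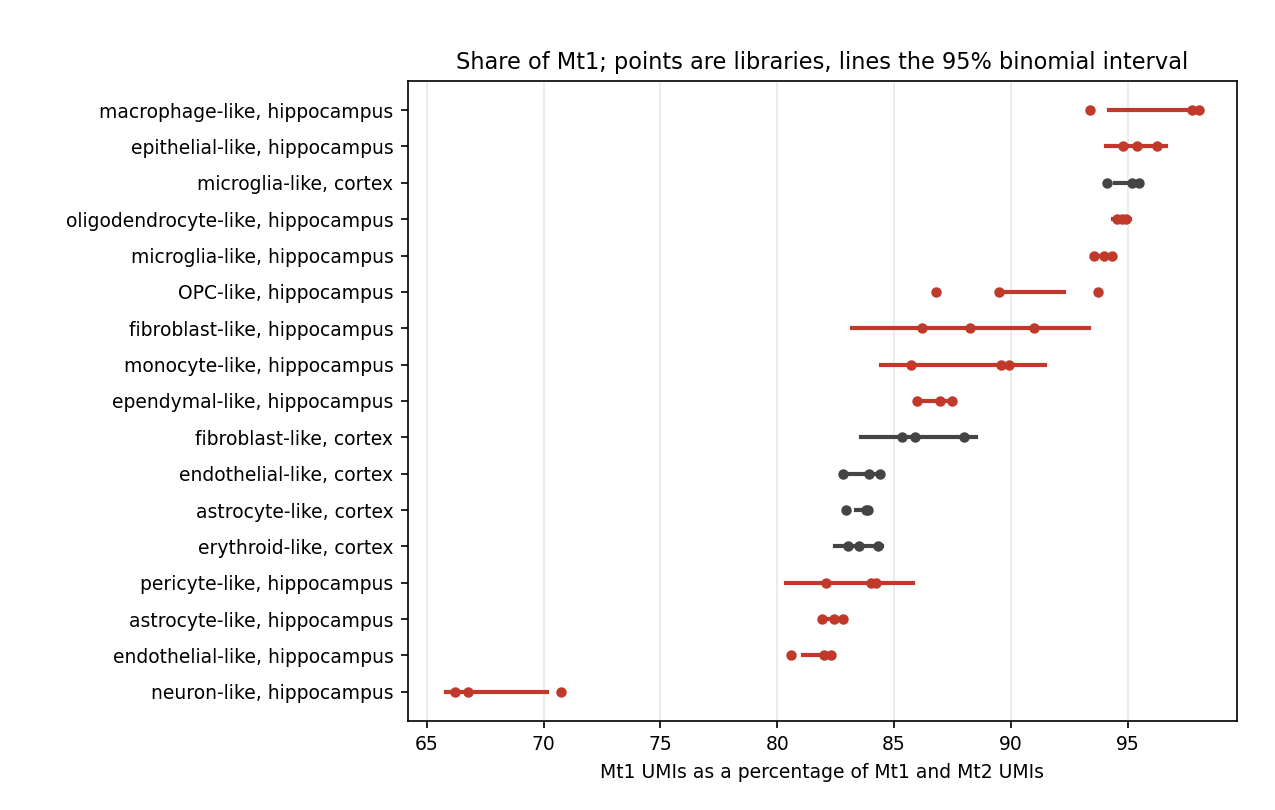
Share of Mt1 among the UMIs of Mt1 and Mt2 (percent) by class, with points for the 3 libraries. Astrocyte-like and endothelial-like cells lie between 80.6% and 84.4%, microglia-like cells between 93.6% and 95.5%, and hippocampal neuron-like cells between 66.2% and 70.8%.

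Within astrocyte-like cells, the genes varied from cell to cell more than counting alone gives. In cells thinned to 1000 UMIs, Mt1 had a median of 13 UMIs in the cortex, with 5 UMIs at the tenth and 24 at the ninetieth percentile, and a median of 7 UMIs in the hippocampus, with 1 and 20 UMIs at these percentiles. The variance of the thinned counts was 4.46 times the mean for Mt1, 1.81 times for Mt2 and 2.21 times for Mt3 in the cortex, and 7.03, 2.07 and 3.83 times in the hippocampus. Counting alone would give a quotient near 1. Among cells of at least 4000 UMIs the quotients for Mt1 were lower, at 3.40 and 4.50. In the hippocampus this cut also drops cells of a cluster with a median of 2914 UMIs and only 882 CPM of Mt1. The part of depth in the spread was not tested.

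The 3 genes moved together over these cells. The correlation of log2(thinned UMIs + 1) was 0.49 between Mt1 and Mt3, 0.47 between Mt1 and Mt2 and 0.29 between Mt2 and Mt3 over 2546 cortical cells, and 0.66, 0.53 and 0.42 over 1841 hippocampal ones. Cells of a preparation share their libraries and their depth, and the values are a description. For cells of at least 4000 UMIs they were 0.41, 0.44 and 0.24 in the cortex and 0.53, 0.41 and 0.29 in the hippocampus. Besides the other members, the genes most like Mt1 over cells were Ckb (0.43 in the cortex and 0.58 in the hippocampus), Aldoc (0.37 and 0.58) and Dbi (0.34 and 0.52), which code for brain creatine kinase, aldolase C and the acyl-CoA binding protein. The same 3 genes were also most like Mt2 and Mt3 in both preparations, followed by Gstm5 for Mt3 in the hippocampus. The nuclear RNA Malat1 had the lowest correlation with Mt1 among the 1285 and 1276 genes compared, -0.29 in the cortex and -0.51 in the hippocampus.

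Likeness was also measured over the 4 classes with at least 50 cells in each preparation, that is over 8 points, as the correlation of log2(CPM + 1) across 6101 genes. The genes most like Mt3 were Mmd2, Rida, Aldoc, Slc1a2 and Slc25a18 (r of 0.99 each), most of which are known from astrocytes. Those most like Mt1 were Fahd1, Hmgcs1, Fez1, Sox2 and Desi2, from 0.99 to 1.00, and those most like Mt2 included Acsl3, Fez1, Rab9 and Pfkm, from 0.98 to 0.99. With 8 points of which 2 are astrocyte-like, a high value says little beyond a high level in those 2. Mt1 reached 0.98 with Mt2 and 0.97 with Mt3. Over 18 points at the resolution of 1.0, the gene most like Mt1 was Mt2 (0.92), and the genes most like Mt3 were Aldoc (0.97) and Ntsr2 (0.97).

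Levels in astrocyte-like cells were highest in bins below 4000 UMIs, though not always in the shallowest bin. In the hippocampus, Mt3 stood at 11167 CPM in cells from 500 to under 1000 UMIs. In the bins that start at 1000, 2000 and 4000 UMIs it stood at 10497.5, 7703 and 4269 CPM, and in those that start at 8000 and 16000 UMIs at 5380.3 and 7144 CPM. The course for Mt1 in the hippocampus was alike, with 17193, 17305, 11637, 6935, 8713 and 11186 CPM, so that both genes were lowest from 4000 to under 8000 UMIs and rose again in the deepest cells. In the cortex, Mt1 stood at 17322, 17722 and 17494 CPM in the bins below 4000 UMIs and at 12817, 12832 and 11685 CPM in those above. Cortical Mt3 stood at 5491, 6437 and 6553 CPM in the bins below 4000 UMIs and at 4769, 4915 and 4949 CPM in those above. The decline set in at a depth that differed between the preparations, 4000 UMIs in the cortex and 2000 in the hippocampus. The cells with 16000 UMIs or more numbered 68 in the cortex and 69 in the hippocampus. Without called doublets, 44 and 54 of them were left. Cortical Mt1 then stood at 12961, 13318 and 13806 CPM in the bins that start at 4000, 8000 and 16000 UMIs. It thus rose slightly in the deepest cortical cells as well, with overlapping libraries. Hippocampal Mt1 then stood at 6994, 9117 and 12473 CPM in these bins. Cortical Mt3 then stood at 6183 CPM in the deepest cells, above the 5491 CPM of the shallowest, with overlapping libraries.

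**Figure D4:**
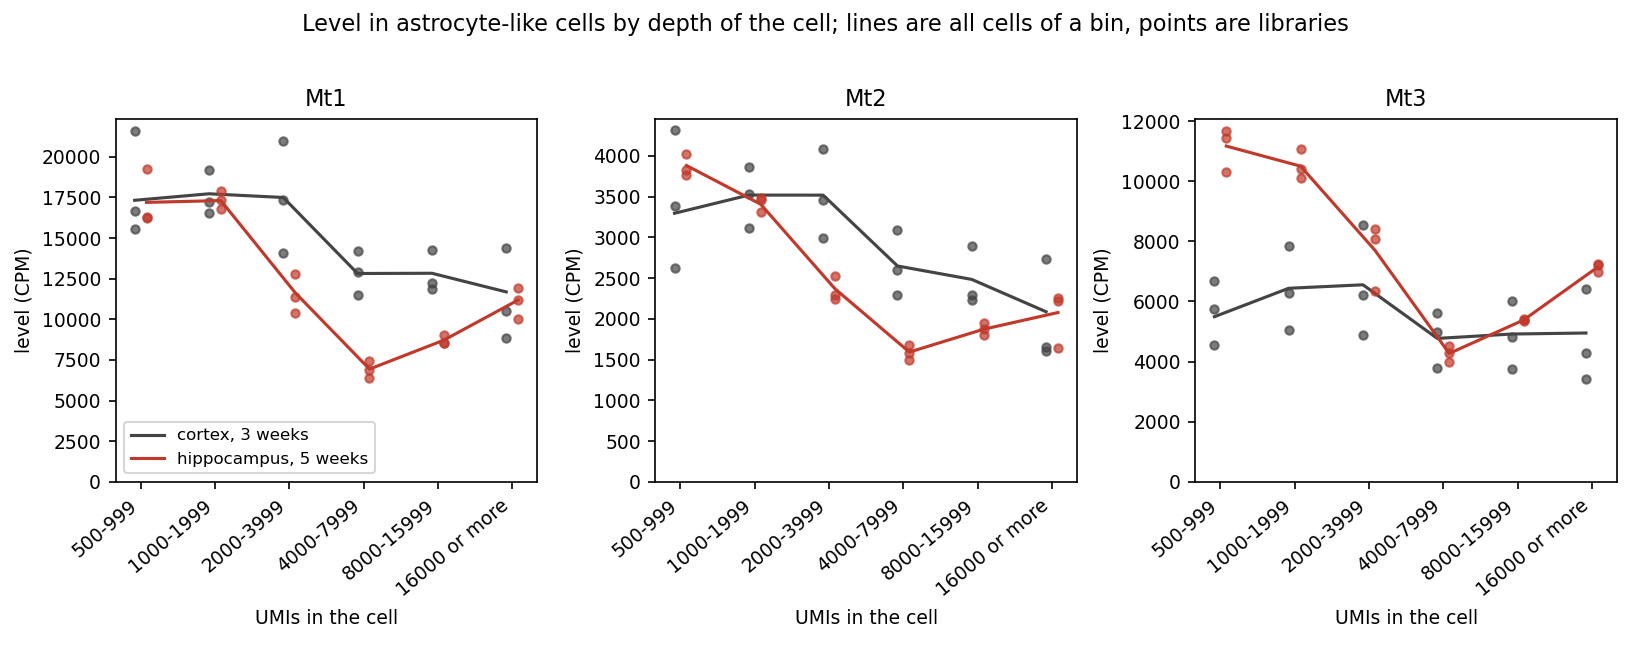
Level of each gene (CPM) in astrocyte-like cells by the number of UMIs per cell, for both preparations, with points for the 3 libraries. Cells of under 2000 UMIs hold the highest levels in the hippocampus, and Mt1 falls from 17305 to 6935 CPM between the bins that start at 1000 and at 4000 UMIs.

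Between shallow cells (under 2000 UMIs) and deep cells (at least 8000 UMIs), the difference on the log2 scale was 0.48 for Mt1, 0.52 for Mt2 and 0.35 for Mt3 in the cortex, over 554 and 892 cells, and every library showed it. In the hippocampus it was 0.92, 0.88 and 0.91 over 345 and 700 cells, again in every library. The 12 astrocyte markers had a median difference of -0.16 in the cortex, where 5 of 12 were above 0, and of -0.60 in the hippocampus, where Aldoc (1.14) and Gfap (0.83) were above 0 and the other 10 below. All 3 metallothioneins thus lay above the median of the markers in both preparations, but within their range. Aldoc lay above all 3 in both preparations, at 0.73 in the cortex, where Cldn10 (0.33) lay close to Mt3. The share of mitochondrial UMIs was also higher in some of these cells, with a median of 17.1% in cortical cells of 1000 to under 2000 UMIs against 11.3% in those of 8000 to under 16000, and 12.1% against 8.27% in the hippocampus, and its part was not tested. Over 4 groups of mitochondrial share between 0% and 25%, which were not matched for depth, the level of Mt1 ranged from 12561 to 14141 CPM in the cortex and from 8341 to 9571 CPM in the hippocampus.

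The largest shallow cluster of astrocyte-like cells lay above the main cluster in both preparations. The main cortical cluster (1797 cells, median of 7829 UMIs) held 12766, 2527 and 4877 CPM of Mt1, Mt2 and Mt3, and the shallow cluster (870 cells, median of 1681 UMIs) held 18475, 3654 and 6828 CPM. In the hippocampus the main cluster (1303 cells, median of 7860 UMIs) held 8350.1, 1804 and 5135 CPM, and the shallow cluster (492 cells, median of 1539.5 UMIs) held 16634, 3168 and 10342 CPM. Each library of a shallow cluster lay above each library of the main cluster of its preparation for Mt1 and Mt2, and for Mt3 in the hippocampus. How many of all genes lay without overlap between these clusters was not counted. A small hippocampal cluster of 83 cells, led by Hopx, Fabp7, Gfap and Hes5, held 5073 CPM of Mt1 and 3901 CPM of Mt3 at a median of 9255 UMIs. Another of 92 cells held the least, 882, 430.5 and 728 CPM, at a median of 2914 UMIs, with 26.1% of cells under 2000 UMIs and a median mitochondrial share of 16.5%, so that a low depth did not always go with a high level.

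In microglia-like cells, with called doublets kept, the shallow cells held more Mt3 than the deep ones in every library. Mt3 stood at 365 CPM in 166 shallow and 51.5 CPM in 513 deep cortical cells, a difference of 2.82 on the log2 scale, and at 289 against 24.2 CPM in 38 and 1375 hippocampal cells. The shallow hippocampal level rests on 12 UMIs. Without called doublets, Mt3 in cortical replicate 3 was 50.2 CPM from 500 to under 1000 UMIs and 0 CPM from 1000 to under 2000. From 8000 to under 16000 UMIs it was 16.9 CPM in that library, so the difference was not clear there. The summed level of the 12 astrocyte markers in cortical microglia-like cells was 488, 2706 and 334 CPM by library in shallow and 519, 406 and 250.1 CPM in deep cells, so that replicate 2 alone showed a large difference and replicate 1 a slight one in the other direction. In the hippocampus it was 451, 876 and 1026 CPM in shallow and 275, 264 and 232 CPM in deep cells, with 5 of the 12 markers at 0 in the 38 shallow cells. The part of astrocyte RNA in these levels was not tested. None of the 10 microglia markers was higher in shallow than in deep cells.

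Cells that the filters left out held the genes as well. Of the 555 cortical barcodes with 25% or more mitochondrial UMIs, 80.2% held a Mt1 UMI, and the level over them was 7573 CPM of Mt1, 1598 CPM of Mt2 and 3023 CPM of Mt3, above the 2874, 546 and 1013 CPM over all kept cells. In 395 such hippocampal barcodes the levels were 2925, 558 and 2568 CPM, against 1495, 281 and 868 CPM in kept cells. The 3862 cortical barcodes with fewer than 250 genes, at a median of 4934.5 UMIs, held 44.9 CPM of Mt1.

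Between the preparations, the astrocyte-like cells differed in Mt1 and Mt2 but not beyond the spread of libraries in Mt3. The difference hippocampus minus cortex on the log2 scale was -0.60 for Mt1 (8718 against 13169.9 CPM) and -0.48 for Mt2 (1865 against 2603 CPM), and no hippocampal library overlapped a cortical one for either gene. Of 8528 genes compared in this class, 25.7% were lower and 33.5% higher in the hippocampus without overlap of libraries, so that this is common among genes when technical replicates of 2 suspensions are compared. None of the 3 genes passed 2-fold, a size that 2.29% of the genes passed towards the hippocampus and 2.04% towards the cortex. The Mt1 difference was lower than that of all but 6.60% of the genes compared. For Mt3 the difference was 0.12, and it was -0.03 without cortical replicate 3 and 0.29 without cortical replicate 1.

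These differences were not the same at all depths. In astrocyte-like cells of under 1000 UMIs the difference was -0.01 for Mt1, 0.24 for Mt2 and 1.02 for Mt3, in cells of 4000 to under 8000 UMIs it was -0.89, -0.73 and -0.16, and in cells of 16000 UMIs or more it was -0.06, -0.01 and 0.53. In the bins that start at 1000, 2000 and 8000 UMIs it was -0.03, -0.59 and -0.56 for Mt1, -0.05, -0.57 and -0.41 for Mt2 and 0.71, 0.23 and 0.13 for Mt3. Mt1 and Mt2 thus lay lower in the hippocampus from 2000 to under 16000 UMIs, where their libraries did not overlap, and overlapped in the shallowest and deepest cells. Mt3 lay higher in the hippocampus below 2000 UMIs and at 16000 UMIs or more, with no overlap of libraries there, and overlapped between. The share of all genes without overlap was not counted in any of these bins. Without called doublets, hippocampal cells of 16000 UMIs or more held 12473 CPM of Mt1 against 13806 CPM in the cortex. For Mt3 it was 8194 against 6183 CPM, and the overlap of libraries was unchanged.

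In endothelial-like cells Mt1 and Mt2 differed in the other direction. Mt1 was 931 CPM in the hippocampus against 617 CPM in the cortex, a difference of 0.59, and Mt2 was 209 against 121 CPM, a difference of 0.79, both without overlap of libraries. Of 8423 genes compared, 41.3% were higher and 15.5% lower in the hippocampus without overlap, and the median over all genes was itself 0.13. Neither gene passed 2-fold, a size that 1.23% of the genes passed towards the hippocampus and 1.25% towards the cortex. In cells with no astrocyte marker UMI the differences were 1.14 and 1.28, past 2-fold towards the hippocampus as in 1.62% of 8312 genes of these cells (1.29% towards the cortex), and without overlap as in 29.7%. By depth, both genes were higher in the hippocampus without overlap in every bin from 2000 UMIs, by 0.44 to 0.84 for Mt1 and 0.64 to 0.91 for Mt2. In these bins the share of all genes without overlap was not counted. From 1000 to under 2000 UMIs the differences were 0.0087 and -0.29 with overlapping libraries. Mt3 was 85.6 CPM in the hippocampus against 123 CPM in the cortex, a difference of -0.53 with overlapping libraries, which was -0.15 without cortical replicate 1. Its direction changed with depth, from 1.40 in cells of under 1000 UMIs to -0.78 from 4000 to under 8000 UMIs and 0.23 at 16000 UMIs or more. The 1.40 has an exact interval of -0.26 to 3.17, and libraries overlapped for both the 1.40 and the 0.23. Without called doublets, cells of 16000 UMIs or more held 61.4 CPM of Mt3 in the hippocampus against 118 CPM in the cortex. The direction in the deepest cells thus depended on called doublets.

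In microglia-like cells the 3 genes overlapped between the preparations, with differences of -0.08 for Mt1, 0.17 for Mt2 and -0.39 for Mt3. Of the genes compared there, 40.3% were higher and 17% lower in the hippocampus without overlap, 0.738% passed 2-fold towards the hippocampus and 1.18% towards the cortex. Without cortical replicate 1, the difference was 0.01 for Mt1 and 0.04 for Mt3. By depth, the Mt1 difference in microglia-like cells was -1.93, 0.35, -0.09 and -0.37 in the bins that start at 500, 2000, 4000 and 8000 UMIs. Only the last was without overlap of libraries, and the share of all genes without overlap in that bin was not counted. The first bin held 21 hippocampal and 75 cortical cells. Mt3 differed by -1.11 from 8000 to under 16000 UMIs, with overlapping libraries. In fibroblast-like cells, 50 in the hippocampus and 77 in the cortex, Mt1 was 339.7 against 759.8 CPM, a difference of -1.16, and Mt2 41.9 against 122 CPM, a difference of -1.54, both without overlap. The nearest libraries for Mt1 were 478 and 487 CPM. In this class 5.96% of genes were past 2-fold lower in the hippocampus and 6.98% were lower without overlap.

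**Figure D5:**
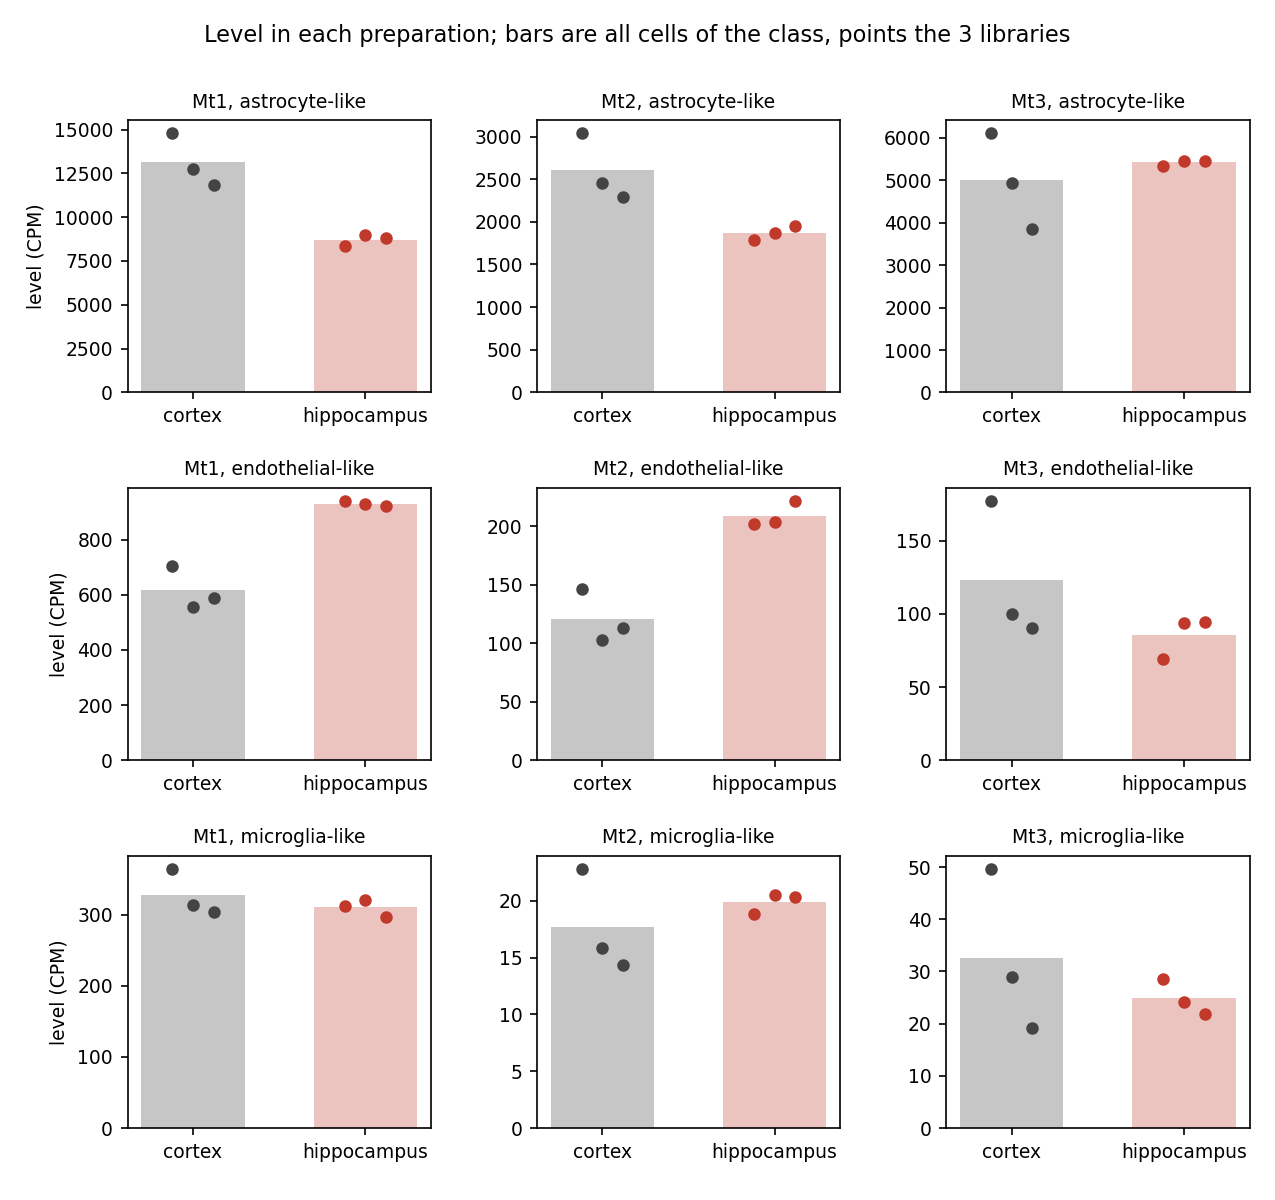
Level of each gene (CPM) in the 2 preparations for astrocyte-like, endothelial-like and microglia-like cells. Bars are all cells of the class and points the 3 libraries. Mt1 in astrocyte-like cells lies between 11851 and 14804 CPM in the cortex and between 8368 and 8982 CPM in the hippocampus, and Mt1 in endothelial-like cells is lower in all cortical libraries.

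The cortical libraries themselves differed in Mt3. The highest library, replicate 1, stood 1.58 times above the lowest in astrocyte-like, 1.97 times in endothelial-like and 2.60 times in microglia-like cells, and 97.7%, 99.6% and 99.8% of genes of the class spread less over the 3 libraries. In the hippocampus the quotient for Mt3 was 1.02, 1.37 and 1.30. The libraries of a preparation came from 1 suspension.

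Other genes of metal handling and of the pathways known to act on metallothioneins were read in astrocyte-like cells, from lists that hold all listed members and not those that moved. Of 24 zinc transporters, 16 passed the filter of 10 CPM in the mean of both preparations and 0 of them passed 2-fold in either direction, with a median difference of 0.08 where that of all genes was 0.06. Slc30a1, which exports zinc and is itself a target of MTF1, was 51.6 CPM in the hippocampus against 33.8 CPM in the cortex, a difference of 0.61. Slc30a6 (-0.38) and Slc39a13 (0.31) followed in size. Of 10 genes of metal sensing and copper handling, 8 passed the filter and 0 passed 2-fold, with a median of -0.17. Among them the copper exporter Atp7a differed by 0.63, the superoxide dismutase Sod1 by -0.55 and its copper chaperone Ccs by -0.44. The part of metals in the metallothionein levels was not tested.

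Of 10 glucocorticoid receptor genes and targets, 8 passed the filter, 0 were past 2-fold higher and 2 were past 2-fold lower in the hippocampus. Of all genes compared in astrocyte-like cells, 2.04% were past 2-fold lower. Tsc22d3, which codes for the glucocorticoid-induced leucine zipper, was 146 against 368 CPM, a difference of -1.33. Sult1a1 was 16.7 against 73.1 CPM, a difference of -2.13. The clock gene Per1 differed by -0.28, and the median of the list was -0.19. In microglia-like cells 3 of 8 and in endothelial-like cells 1 of 7 genes of this list above the filter were past 2-fold lower, with medians of -0.68 and -0.65. Of all genes compared in these classes, 1.18% and 1.25% were past 2-fold lower. The part of glucocorticoids in the metallothionein levels was not tested.

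Of 11 targets of the oxidative stress factor NRF2, 9 passed the filter and 0 passed 2-fold, with a median of -0.15. Gclm, a subunit of the enzyme that makes glutathione's precursor, differed by -0.61, Nqo1 by -0.47 and Txnrd1 by -0.41. Of 8 genes of the IL-6 and STAT3 response, 3 passed the filter, Il6st (0.19), Vim (0.16) and Stat3 (0.08), and 0 passed 2-fold. Of 12 genes that dissociation is known to raise, 9 passed the filter in astrocyte-like cells and 0 passed 2-fold, with a median of 0.43 above the 0.06 of all genes. Within it Dusp1 differed by -0.69, Btg2 by 0.54 and Junb by 0.54. In endothelial-like cells 2 of 12 were past 2-fold higher, with a median of 0.51, where 1.23% of all genes compared were. In microglia-like cells 1 of 12 was past 2-fold lower, with a median of -0.02, where 1.18% of all genes compared were. The part of the dissociation in the metallothionein levels was not tested.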

How the data were processed

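Cortical (3 weeks) and hippocampal (5 weeks) cells were analysed as 3 technical replicates each. For each library the authors deposited raw UMI counts per gene and barcode, not normalized. The labels name Cell Ranger 5.0.1 and mm10, and the matrix headers 3.0.1 and 3.1.0. The end of the transcript captured was not given in the sources used here. Every deposited barcode held at least 500 UMIs.

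After the study's methods, cells with 250 to 6000 genes and under 25% mitochondrial UMIs were kept, and libraries were integrated by canonical correlation analysis with Seurat 5.3.0 in R 4.3.3 (2000 variable genes less Mt1, Mt2 and Mt3, 30 components, resolution 0.5). Clusters were named from markers of 16 cell types, counted when found in at least 20% of cells and 2 times higher than elsewhere, and at least 3 were needed. This naming rule was revised after the first names were seen. Named clusters numbered 16 of 21 in the cortex and 26 of 28 in the hippocampus. Called doublets (Scrublet in scanpy 1.11.5, 0.8% per 1000 barcodes) were kept, 638 cortical and 581 hippocampal.

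Levels, SDs and exact 95% Poisson or Clopper-Pearson intervals, which cover counting error only, were computed with Python 3.11.15, NumPy 2.4.6, SciPy 1.17.1 and pandas 2.3.3, and plotted with matplotlib 3.10.9. Log2 ratios were taken for genes of at least 10 CPM in the mean of both preparations. With 1 biological sample per preparation no p-value was computed. The scripts for naming and ratios were tested on simulated data. For naming, cells were drawn from the summed profiles of classes that the same rule had named. That check could not test how shallow or mixed clusters are named. Sequences come from the GENCODE M21 transcripts on GRCm38 and RefSeq windows on GRCm38.p6.

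Genes named besides the 3 members and Mt4 were the 5 most like each member and up to 3 of each of 6 lists with the largest difference in astrocyte-like cells. One of the genes most like Mt2 is not reported here. The members and lists were chosen with earlier results of these data known. The levels without shared barcodes in every class, in cells without astrocyte markers, by depth bin and without a hippocampal cluster were alternatives chosen after seeing the data.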

Additional observations from a re-analysis of the deposited data

Results flagged for a closer look

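The difference between preparations went in opposite directions in different classes, with every library of a preparation on the same side. At the resolution of 0.5, the log2 difference hippocampus minus cortex for Mt1 was 0.59 in endothelial-like cells but -0.60 in astrocyte-like and -1.16 in fibroblast-like cells. For Mt2 it was 0.79 in endothelial-like cells but -0.48 in astrocyte-like and -1.54 in fibroblast-like cells. Classes named at the resolution of 1.0 also differed in Mt1, by -1.67 in pericyte-like, -1.59 in macrophage-like and 1.64 in monocyte-like cells. The first 2 differences were lower than those of all but 2.01% and 1.34% of the genes compared in their classes. The monocyte-like difference was higher than that of only 83.1% of genes and rests on 29 hippocampal and 32 cortical UMIs. Its 123 hippocampal cells had a median of 589 UMIs. How many of all genes lay without overlap in these classes was not counted. With 1 biological sample per preparation the contrast between classes was not tested, and the fibroblast-like classes held 50 and 77 cells.

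The difference between shallow and deep endothelial-like cells for Mt2 was 0.36 on the log2 scale in the cortex and -0.48 in the hippocampus, with all 3 libraries of each preparation on that side. It rests on 38 UMIs in 274 shallow cortical cells and on 27 UMIs in 185 shallow hippocampal cells, both exact intervals hold 0, and the contrast was not tested.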

How the results depend on the processing

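No paired analysis was possible because the replicate numbers name technical runs of different suspensions and no result comes from a test. Over the planned and added alternatives, 227 values of the main levels and differences stayed within 1 SD of the libraries and 40 moved further, and of the other values 143 stayed and 37 moved. The difference between preparations kept its direction in 23 of 23 alternatives for Mt1, 22 of 23 for Mt2 and 21 of 23 for Mt3 in astrocyte-like cells, in 23, 22 and 20 of 23 in endothelial-like cells, and, without depth bins, in 13, 17 and 14 of 17 in microglia-like cells. By depth in endothelial-like cells, Mt1 was 0.37, 0.0087 and 0.84 from 500, 1000 and 16000 UMIs, Mt2 was 0.45 and -0.29 from 500 and 1000 UMIs, and Mt3 was 1.40, 0.062 and 0.23 from 500, 2000 and 16000 UMIs. In hippocampal astrocyte-like cells, Mt3 was 5633 CPM without called doublets, 5157 CPM with a mitochondrial limit of 10%, 5259.96 CPM in cells of at least 2000 UMIs, and 5508 CPM when the genes could enter the clustering. Without mitochondrial UMIs in the denominator, Mt1 was 14951 CPM in the cortex and 9565 CPM in the hippocampus, where Mt2 was 2047 and Mt3 5948 CPM. As a mean over cells, hippocampal Mt1, Mt2 and Mt3 were 9936, 2129 and 6205 CPM. Without called doublets, the shallow minus deep difference was 0.40 for Mt1 and 0.27 for Mt3 in the cortex, and 0.80 for Mt2 and 0.82 for Mt3 in the hippocampus.

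The Mt1 difference between preparations in endothelial-like cells was 0.78 with the mitochondrial limit of 10%. In cells without astrocyte marker UMIs it was 1.14, with 1.28 for Mt2 and, with overlapping libraries and a high cortical replicate 1, -1.26 for Mt3, and in microglia-like cells 0.18 for Mt1 and 0.84 for Mt2. By depth in astrocyte-like cells, it was -0.011, -0.034, -0.89 and -0.063 for Mt1 and 0.24, -0.047, -0.73 and -0.0066 for Mt2 (from 500, 1000, 4000 and 16000 UMIs), and 1.02, 0.71 and 0.53 for Mt3 (from 500, 1000 and 16000 UMIs). The causes were not tested.

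Leaving out 1 replicate at a time, cortical and hippocampal Mt1 in astrocyte-like cells ranged from 12319 to 13777 and from 8586 to 8895 CPM, Mt2 from 2375 to 2747 and from 1825 to 1906 CPM, and Mt3 from 4426 to 5531 and from 5399 to 5460.3 CPM. The differences in astrocyte-like, endothelial-like and microglia-like cells ranged from -0.66 to -0.50, 0.52 to 0.70 and -0.13 to 0.01 for Mt1, from -0.56 to -0.35, 0.68 to 0.96 and 0.05 to 0.39 for Mt2, and from -0.03 to 0.29, -0.70 to -0.15 and -0.66 to 0.04 for Mt3. Genes past 2-fold in astrocyte-like cells numbered 1796 higher and 853 lower with a filter of 1 UMI, against 195 and 174. In endothelial-like cells they numbered 1269 and 803 against 104 and 105, and in microglia-like cells 1422 and 828 against 59 and 94.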
